A study of Mus musculus with 14 samples.

Results

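Expression of the chains of interleukin and interferon gamma receptors was examined in mouse CD4+ T cells exposed to interferon alpha and a JAK inhibitor. The genes were 10 in number, namely Il2ra, Il2rb, Il2rg, Il4ra, Il21r, Il12rb1, Il12rb2, Il6st, Il10ra and Ifngr1, and each was represented by its brightest probe set among those annotated to that symbol alone. Of the 10, 9 had such a probe set, 1 each, out of 19752 genes on the array, and all 9 were bright enough to be tested with 11761 genes in all. Il2rg had no probe set of its symbol alone and was not analysed here. Spleens of 6 week old male C57BL/6 mice were the source, and the CD4+ cells were obtained by negative selection. All cells were stimulated for 48 h with CD3/28 beads, and then every culture received interferon alpha at 100 U/ml together with 1 of 7 inhibitors at its IC80, the concentration that inhibits by 80%. RNA was taken after 2 h or 8 h, and 14 Affymetrix Mouse Gene 1.0 ST arrays were made, 1 for each inhibitor and time. The inhibitors carried the target labels JAK1 (title code IFN.3404), JAK1/2 (IFN.6221), PAN (IFN.6222), TYK2 (IFN.2485), JAK2 (IFN.3885) and, for both IFN.6226 and IFN.6228, JAK3. PAN was taken to cover every JAK, and the inhibitors are named below by target label, with the JAK3 pair named by title. How many mice went into a culture is not given in the sources used here. Arrays of cells without an inhibitor were not analysed here, so all values are differences between times or between inhibitors. No array was repeated, so no p-value measures the spread between cultures. Tests of time and of single inhibitors measure differences against the unevenness of the 7 inhibitors from 2 h to 8 h together with noise, and tests of target classes measure them against the scatter of inhibitors within a class.

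Cytokine receptors of this family have no kinase of their own and signal through JAKs bound to the cytoplasmic tails of their chains, which phosphorylate STAT transcription factors. In the interleukin-2 receptor the alpha chain (Il2ra, CD25) raises affinity and binds no JAK, the beta chain (Il2rb) binds JAK1, and the common gamma chain (Il2rg), shared with the receptors of interleukin-4 and interleukin-21, binds JAK3. Il12rb2 binds JAK2 and Il12rb1 binds TYK2, and together they form the interleukin-12 receptor that directs T helper type 1 differentiation. Il4ra, Il21r, Il6st (gp130, the signalling chain of the interleukin-6 family), Il10ra and Ifngr1 bind JAK1. By the JAK that binds them the measured chains fell into 6 for JAK1 (Il2rb, Il4ra, Il21r, Il6st, Il10ra and Ifngr1), 1 for JAK2 (Il12rb2), 1 for TYK2 (Il12rb1) and 1 for none (Il2ra). Interferon alpha itself signals through JAK1 and TYK2.

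The 250 bases before the start of 3 genes are given: Il12rb2 and Il2ra, the chains with the largest falls between 2 h and 8 h below, and Il4ra, the chain that rose and has a window. The sequences are RefSeq's on build GRCm38.p6, which held windows for 7 of the 10 genes (6 of the 9 measured). Capitals mark the match to TTCNNNGAA, the general form of a STAT binding motif, which reads the same on both strands. The windows lie at chr6:67376189-67376438 on the minus strand (Il12rb2), chr2:11642542-11642791 on the plus strand (Il2ra) and chr7:125552021-125552270 on the plus strand (Il4ra), each just upstream of the first exon.
Il12rb2: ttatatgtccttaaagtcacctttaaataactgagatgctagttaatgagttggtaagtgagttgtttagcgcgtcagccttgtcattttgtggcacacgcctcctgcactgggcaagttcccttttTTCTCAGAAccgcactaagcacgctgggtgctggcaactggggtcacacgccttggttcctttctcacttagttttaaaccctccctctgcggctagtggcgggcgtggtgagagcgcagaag
Il2ra: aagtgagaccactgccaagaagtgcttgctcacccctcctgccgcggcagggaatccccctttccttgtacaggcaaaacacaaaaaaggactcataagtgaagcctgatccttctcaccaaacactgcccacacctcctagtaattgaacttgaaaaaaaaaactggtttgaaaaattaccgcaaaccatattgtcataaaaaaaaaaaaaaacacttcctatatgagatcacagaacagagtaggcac
Il4ra: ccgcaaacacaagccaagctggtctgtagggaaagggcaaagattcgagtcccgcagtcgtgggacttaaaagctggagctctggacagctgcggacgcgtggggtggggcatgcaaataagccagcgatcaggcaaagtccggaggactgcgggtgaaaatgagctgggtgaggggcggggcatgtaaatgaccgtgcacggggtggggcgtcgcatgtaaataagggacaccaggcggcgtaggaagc
Among the 7 windows, Il12rb2 alone held TTCNNNGAA, as TTCTCAGAA from base -123 to base -115 counted from the start. The same motif was found in 7.02% of 32851 windows of the same length. TTC and GAA with 4 bases between them (5.85% of windows) were in none of the 7, and neither was a repeat of GAAA with 2 bases between the copies, on either strand (2.98% of windows). These matches describe letters in the window and are not measurements of binding.

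The T cell identity of the samples was checked first. Cd3e, part of the CD3 complex, had a mean log2 intensity of 12.37 and Cd4 one of 11.82 over the 14 arrays. Markers of other lymphocytes were also above the filter, and since bulk RNA was measured, fewer cells of a type and less RNA per cell cannot be told apart. The mean of 5 measured B cell markers lay between 7.88 and 8.05 at 2 h and between 8.22 and 8.49 at 8 h. The mean of the 2 CD8 markers lay between 7.59 and 7.82 at 2 h and between 7.94 and 8.16 at 8 h. The 6 T cell markers also moved with time, from between 11.30 and 11.38 to between 11.57 and 11.62. The mean of 5 regulatory T cell markers, cells that carry much Il2ra, was 9.73 to 9.84 at 2 h and 9.79 to 10.02 at 8 h. Their part in the changes with time was not tested. The JAK1 array at 8 h stood apart, with the lowest upper quartile of intensity (398, against up to 497 for JAK2 at 8 h) and a mean Pearson r of 0.990 with the other 8 h arrays. The mean of 10 skeletal muscle genes was 7.06 on that array and 7.18 and 7.19 on the JAK1/2 arrays, against at most 6.68 on the other 11, so results are also given without these arrays where that matters.

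**Figure D1:**
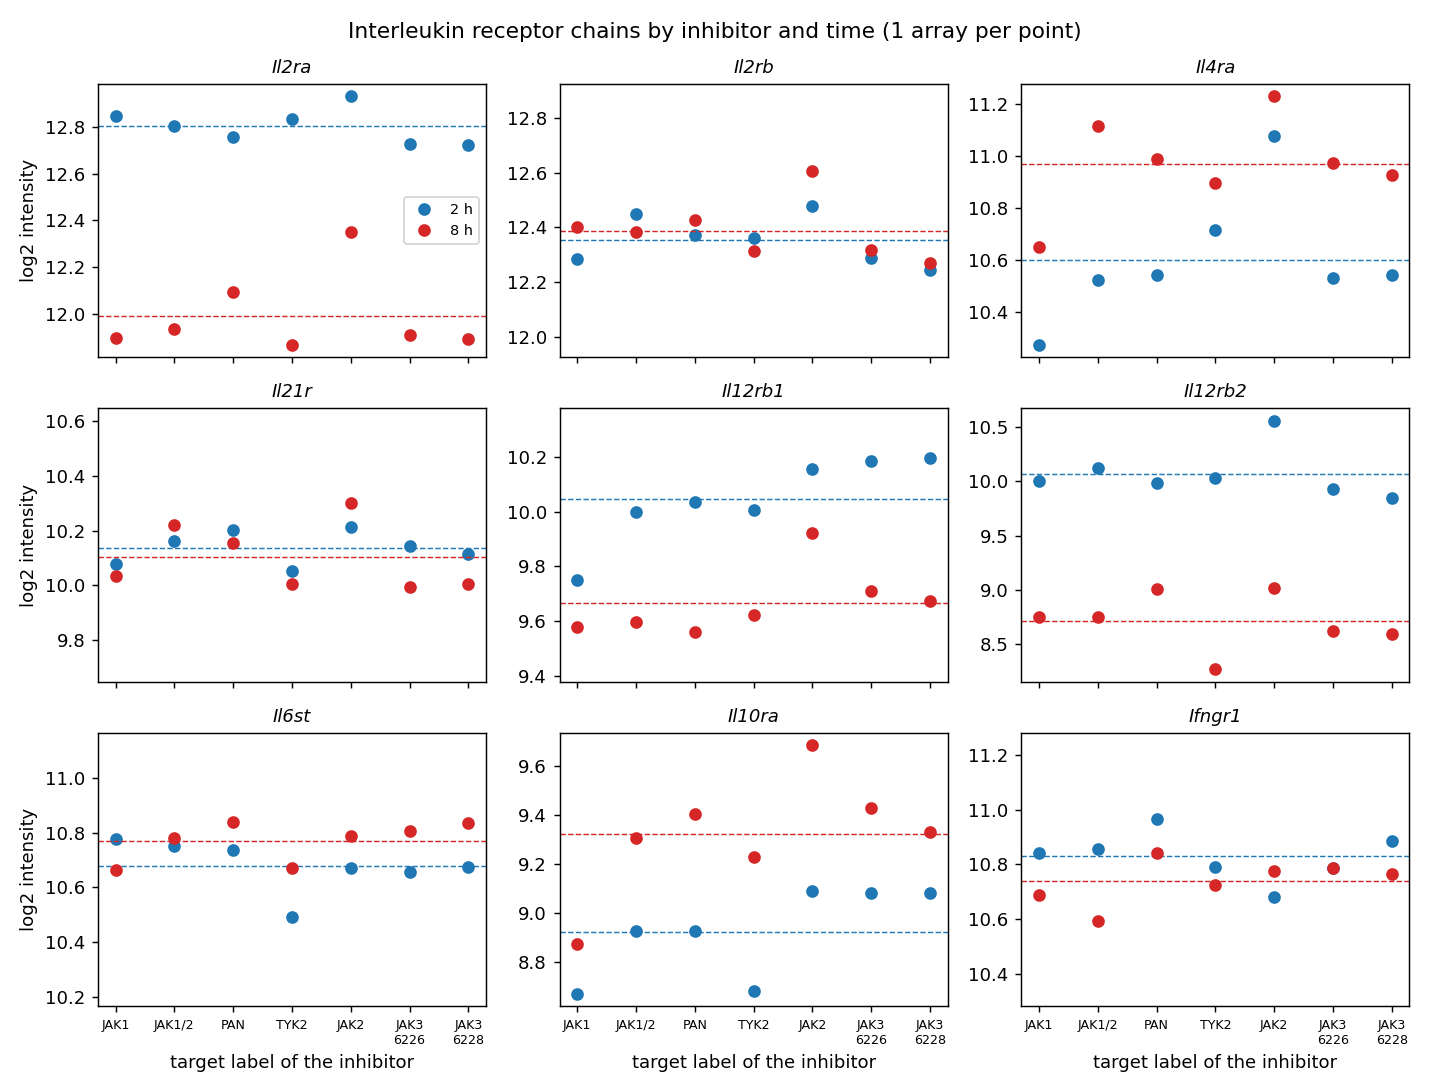
Log2 intensity of each of the 9 receptor chains (vertical axes, each panel with its own range) for the 7 inhibitors (horizontal axes), 1 point per array at 2 h (blue) and 8 h (red), with dashed lines at the mean of each time. Il2ra and Il12rb2 are lower at 8 h without overlap, while the ranges of the other 7 chains overlap.

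Between 2 h and 8 h the interleukin-12 receptor chains and CD25 fell, Il4ra and Il10ra rose, and the other 4 JAK1-binding chains did not pass the test. In all, 5 of the 9 chains passed at an adjusted p under 0.05 by limma with Benjamini-Hochberg adjustment over all genes tested, 3 lower and 2 higher. Across all genes 49.6% passed, 28.2% lower and 21.4% higher, so the share of chains that passed was near that of the array as a whole. The median difference of the 9 chains was -0.04 on the log2 scale, beside 0.02 for all genes. All 5 had the same sign with each of the 7 inhibitors, as 38.5% of all genes did.

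Il12rb2, the JAK2-binding chain of the interleukin-12 receptor, had the largest difference of the 9. At 2 h its log2 intensity was 9.85 with IFN.6228, 9.92 with IFN.6226, 9.98 with PAN, 9.999 with JAK1, 10.03 with TYK2, 10.12 with JAK1/2 and 10.56 with JAK2. At 8 h it was 8.27 with TYK2, 8.60 with IFN.6228, 8.63 with IFN.6226, 8.75 with JAK1/2, 8.75 with JAK1, 9.004 with PAN and 9.02 with JAK2. The times did not overlap, as was so for 15.6% of genes in the downward direction and 8.92% in the upward, and JAK2 was the highest array at both. From 10.06 ± 0.23 (SD, n = 7) to 8.72 ± 0.26 (SD, n = 7), Il12rb2 fell by 1.35 on the log2 scale (SE 0.08, limma adjusted p = 7.7e-09), a level 2.54-fold lower. Of the 11761 genes 55 had a lower difference. The size of the fall ran from 0.98 with PAN (the difference was -0.98) to 1.76 with TYK2 (a difference of -1.76).

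Its partner Il12rb1, the TYK2-binding chain shared with the interleukin-23 receptor, fell less. At 2 h its level lay between 9.75 with JAK1 and 10.20 with IFN.6228, with a median of 10.04, and at 8 h between 9.56 with PAN and 9.92 with JAK2, with a median of 9.62. The times overlapped, because the JAK1 array at 2 h was below the JAK2 array at 8 h. Il12rb1 fell by 0.38 (SE 0.06, limma adjusted p = 5.2e-05, 1.30-fold) and was lower at 8 h with 7 of 7 inhibitors, by amounts from -0.53 with IFN.6228 to -0.17 with JAK1.

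Il2ra, a gene that T cells switch on when activated, fell with every inhibitor. At 2 h the values were 12.72 with IFN.6228, 12.73 with IFN.6226, 12.76 with PAN, 12.80 with JAK1/2, 12.84 with TYK2, 12.85 with JAK1 and 12.93 with JAK2. At 8 h they were 11.87 with TYK2, 11.89 with IFN.6228, 11.90 with JAK1, 11.91 with IFN.6226, 11.93 with JAK1/2, 12.09 with PAN and 12.35 with JAK2. The times did not overlap, and at 8 h 5 inhibitors lay within 11.87 to 11.93 while PAN and JAK2 lay above them. The mean went from 12.80 ± 0.08 to 11.99 ± 0.18 (SD, n = 7 each), a fall by 0.81 (SE 0.05, limma adjusted p = 6.9e-09, 1.76-fold), and 294 genes had a lower difference. The difference was smallest with JAK2 (-0.58) and largest with TYK2 (-0.97).

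The beta chain Il2rb, which pairs with CD25 and carries JAK1, showed no such difference. Its levels ran from 12.25 with IFN.6228 to 12.48 with JAK2 at 2 h (median 12.36) and from 12.27 with IFN.6228 to 12.61 with JAK2 at 8 h (median 12.38). The time difference was 0.03 (SE 0.03, limma adjusted p = 0.435), positive with 5 of 7 inhibitors, and its sign turned under median centring of the arrays (-0.0019).

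Of the JAK1-binding chains 2 rose, the interleukin-4 receptor alpha chain and the interleukin-10 receptor alpha chain. Il4ra lay at 10.28 with JAK1, 10.53 with JAK1/2, 10.53 with IFN.6226, 10.54 with PAN, 10.54 with IFN.6228, 10.72 with TYK2 and 11.07 with JAK2 at 2 h. At 8 h it lay at 10.65 with JAK1, 10.89 with TYK2, 10.93 with IFN.6228, 10.97 with IFN.6226, 10.99 with PAN, 11.11 with JAK1/2 and 11.23 with JAK2. The ranges overlapped, and at both times JAK1 was lowest and JAK2 highest. The rise was 0.37 (SE 0.05, limma adjusted p = 6.6e-05, 1.29-fold), from 10.60 ± 0.24 to 10.97 ± 0.18 (SD, n = 7 each), and by inhibitor it ran from 0.15 with JAK2 to 0.59 with JAK1/2.

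Il10ra, through which T cells receive the inhibitory cytokine interleukin-10, rose by a similar amount. At 2 h it was 8.67 with JAK1, 8.68 with TYK2, 8.93 with JAK1/2, 8.93 with PAN, 9.08 with IFN.6228, 9.08 with IFN.6226 and 9.09 with JAK2. At 8 h it was 8.87 with JAK1, 9.23 with TYK2, 9.31 with JAK1/2, 9.33 with IFN.6228, 9.40 with PAN, 9.43 with IFN.6226 and 9.68 with JAK2. As with Il4ra, JAK1 was the lowest and JAK2 the highest array at both times, and the ranges overlapped. Il10ra rose by 0.40 (SE 0.06, limma adjusted p = 8.2e-05, 1.32-fold), by 0.20 with JAK1 at the least and by 0.59 with JAK2 at the most.

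Il21r, Il6st and Ifngr1 did not pass. Il21r, the receptor of the follicular helper cytokine interleukin-21, ran from 10.05 with TYK2 to 10.21 with JAK2 at 2 h (median 10.14) and from 9.99 with IFN.6226 to 10.30 with JAK2 at 8 h (median 10.03), a difference of -0.04 (SE 0.05, limma adjusted p = 0.560) whose sign turned under quantile normalization (0.02) and cyclic loess (0.02). Il6st ran from 10.49 with TYK2 to 10.78 with JAK1 at 2 h (median 10.67) and from 10.66 with JAK1 to 10.84 with PAN at 8 h (median 10.79). Its difference of 0.09 (SE 0.05, limma adjusted p = 0.129) was positive with 6 of 7 inhibitors, all but JAK1. Il6st passed without the JAK1 array of 8 h (0.12, adjusted p = 0.0122), without the 3 arrays with higher muscle genes (0.14, adjusted p = 0.00726), under quantile normalization (0.13, adjusted p = 0.00367) and under cyclic loess (0.14, adjusted p = 0.00278). Ifngr1, the ligand-binding chain of the interferon gamma receptor, ran from 10.68 with JAK2 to 10.97 with PAN at 2 h (median 10.84) and from 10.59 with JAK1/2 to 10.84 with PAN at 8 h (median 10.77). Its difference was -0.09 (SE 0.05, limma adjusted p = 0.135), and it passed when the JAK2 inhibitor was left out (-0.12, adjusted p = 0.0342).

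**Figure D2:**
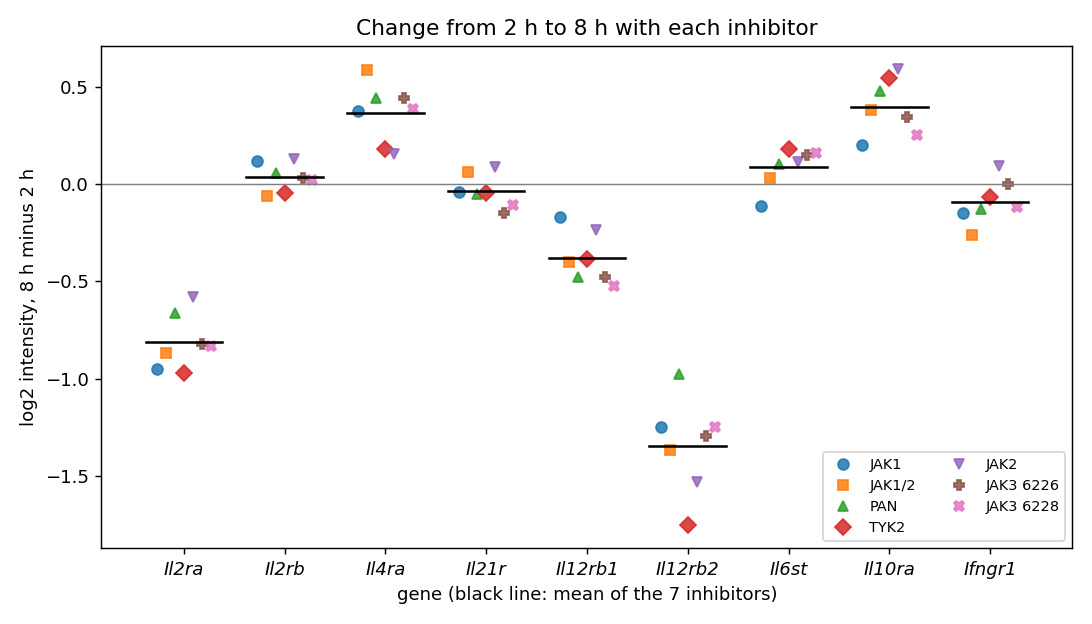
Difference in log2 intensity between 8 h and 2 h (vertical axis) for each chain (horizontal axis), 1 symbol per inhibitor, with a black line at the mean of the 7. Il12rb2 and Il2ra lie below 0 with all 7 inhibitors, from -1.76 to -0.98 and from -0.97 to -0.58, and Il4ra and Il10ra lie above 0 with all 7.

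Whether the change with time depended on inhibition of the interferon receptor's kinases was asked by comparing the 8 h minus 2 h difference between the 4 inhibitors that name JAK1 or TYK2 (JAK1, JAK1/2, PAN and TYK2) and the other 3. By limma none of the 9 chains passed, beside 0.102% of all genes (12 genes), and 0 had an unadjusted p under 0.05, beside 10.1% of all genes. For Il12rb2 the mean change was -1.34 ± 0.32 (SD, n = 4) against -1.36 ± 0.15 (SD, n = 3), a difference of 0.02 (SE 0.15, limma adjusted p = 0.939). For Il2ra it was -0.86 ± 0.14 against -0.75 ± 0.14, a difference of -0.12 (SE 0.09, limma adjusted p = 0.530). The smallest p of the 9 was that of Ifngr1, at -0.15 ± 0.08 against -0.01 ± 0.11 (difference -0.14, SE 0.09, limma adjusted p = 0.496).

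Next, the 7 inhibitors were compared with each other in the fit of inhibitor and time. By limma's F test over all 7, none of the 9 chains passed, while 1.46% of all genes did, and 6 of the 9 had an unadjusted p under 0.05, beside 10.3% of all genes. The smallest adjusted p were 0.0511 for Il4ra and 0.0973 for Il10ra, followed by 0.257 for Il12rb2, 0.281 for Il2rb and 0.357 for Il2ra. Without the JAK1 array of 8 h, Il4ra passed (1 chain, beside 1.83% of all genes), and without the 3 arrays with higher muscle genes Il2ra, Il2rb, Il4ra and Il12rb2 passed (4 chains, beside 2.97% of all genes).

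With the JAK1 inhibitor 2 of the 9 chains were lower than with the other 6, and both bind JAK1, as 6 of the 9 measured chains do. Il4ra averaged 10.46 on the 2 JAK1 arrays and 10.84 on the other 12, which gave a difference of -0.38 (SE 0.08, limma adjusted p = 0.0111, 1.30-fold). Il10ra averaged 8.77 against 9.18, a difference of -0.41 (SE 0.09, limma adjusted p = 0.0127, 1.33-fold). Of all genes 7.77% passed in this comparison, 6.81% lower and 0.961% higher. As deposited the calls over all genes split into 113 higher and 801 lower, against 752 and 763 after quantile normalization and 710 and 759 after cyclic loess, and Il4ra and Il10ra were called lower in each. JAK1 was the lowest of the 7 for both chains at both times, as it was for 12.7% of all genes. All 9 chains had a negative difference, while 38.4% of all genes had a positive one. Both calls were lost without the JAK1 array of 8 h, which was the lowest of the 7 for 45.6% of all genes. It also had the lowest 8 h mean of the T cell (11.57), regulatory T cell (9.79) and NK cell markers (5.30). Its means of the macrophage and monocyte (6.14) and granulocyte markers (5.91) were the highest at 8 h. Of the 5 measured genes in each of these 2 lists, 2 were above the filter. The part of the markers in the JAK1 differences was not tested. Without this array the JAK1 inhibitor was left with 1 array, of 2 h, and Il4ra differed by -0.38 and Il10ra by -0.29. Without the 3 arrays with higher muscle genes the JAK1 inhibitor also had only its 2 h array, and JAK1/2 had none. Il4ra was still called there and Il10ra was not (-0.30). Il12rb1, at -0.22 with all arrays (SE 0.08, limma adjusted p = 0.0929), was then at -0.37, a value that rests on that 1 array. The other JAK1-binding chains lay close to 0, with -0.03 for Il2rb, -0.07 for Il21r, -0.0037 for Il6st and -0.02 for Ifngr1.

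With the JAK2 inhibitor most chains were at their highest. It gave the highest value of the 7 for 6 of 9 chains at 2 h, where it did so for 15.1% of all genes, and for 7 of 9 at 8 h, where it did so for 43.1%. Il2ra, Il2rb, Il4ra, Il21r, Il12rb2 and Il10ra were highest at both times, 6 chains beside 2.75% of all genes. Under quantile normalization this held for 4 chains (2.31% of genes), under cyclic loess for 4 (2.71%) and under median centring for 3 (1.47%), and it held for 6 when any other inhibitor was left out. The JAK2 array of 8 h also had the highest upper quartile of all 14. Its means of the regulatory T (10.02), B (8.49), CD8 T (8.16), CD4 T (10.51) and NK cell markers (5.76) were highest at 8 h. At 2 h the JAK2 array did not have the highest mean of any of these lists. It had the highest 2 h means of the macrophage and monocyte (6.13), dendritic cell (6.004) and granulocyte markers (5.83). Of the 5 measured genes in each, 2, 1 and 2 were above the filter. The T cell mean of the JAK2 array (11.30) was the lowest at 2 h. Of the 5 regulatory T cell markers 4 differed upward with JAK2, with 0.29 for Foxp3, 0.20 for Tnfrsf18, 0.05 for Ctla4 and 0.02 for Capg, and Ikzf2 differed by -0.08. Of all genes 65.3% differed upward, with a median of 0.03. The part of these in the values above was not tested.

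The differences between the JAK2 inhibitor and the other 6 did not pass limma's test for any chain, and 0.0765% of all genes passed (9 genes). Of the 9 chains 7 had an unadjusted p under 0.05, beside 4.65% of all genes. For Il4ra the difference was 0.43 (95% interval 0.26 to 0.59, limma adjusted p = 0.0657), with a mean of 11.15 against 10.72. For Il12rb2, the JAK2-binding chain, it was 0.46 (0.23 to 0.70, adjusted p = 0.142), and at 2 h its JAK2 array (10.56) stood clear of the next (10.12). Il10ra differed by 0.31 (0.12 to 0.49, adjusted p = 0.319), Il2ra by 0.28 (0.14 to 0.42, adjusted p = 0.124) and Il2rb by 0.20 (0.09 to 0.30, adjusted p = 0.160). Il2rb, which differed little with time (0.03), was the chain for which both JAK2 arrays lay above all other 12. For the same chain both IFN.6228 arrays lay below all other 12 (difference -0.13, limma adjusted p = 0.668). The share of all genes for which either held was not counted. The median of the 9 differences with JAK2 was 0.21, beside 0.03 for all genes, and 8 of 9 were positive, beside 65.3% of genes. Without the JAK1 array of 8 h 3 of these chains passed, namely Il4ra (0.43, limma adjusted p = 0.0131), Il2rb (0.21, adjusted p = 0.0231) and Il2ra (0.27, adjusted p = 0.0335), beside 0.689% of all genes. Without the 3 arrays with higher muscle genes Il12rb2 passed as well (0.50, adjusted p = 0.0143), 4 chains beside 1.09% of all genes. Il4ra also passed without IFN.6228 (0.43, adjusted p = 0.0468), where 0.434% of all genes did.

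**Figure D3:**
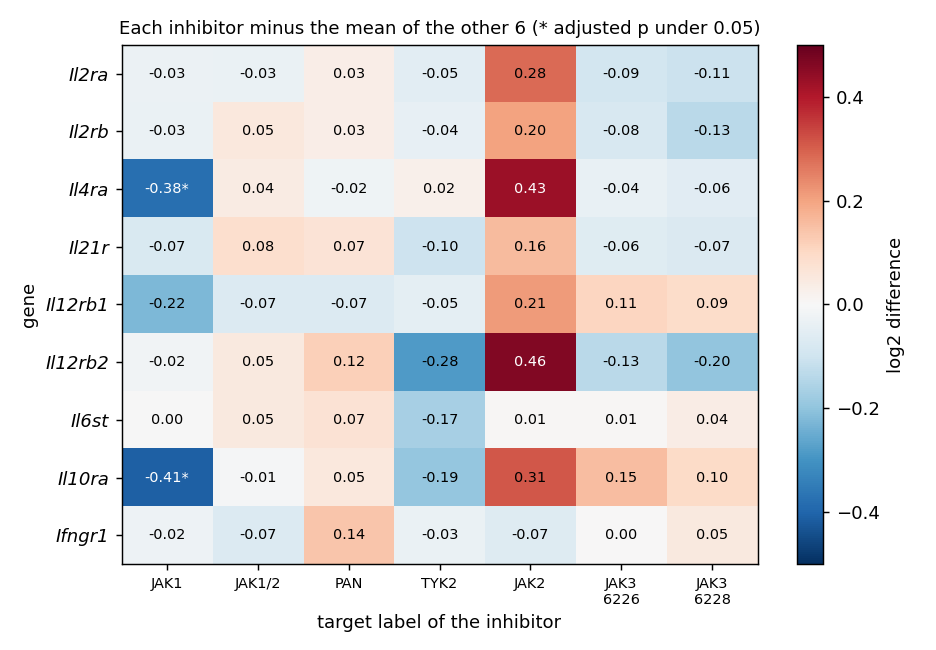
Difference in log2 intensity between each inhibitor and the mean of the other 6, over both times, for the 9 chains (rows) and 7 inhibitors (columns), coloured by its size, with an asterisk where the limma adjusted p was under 0.05. The JAK1 column holds the lowest values for Il4ra (-0.38) and Il10ra (-0.41), and the JAK2 column holds the highest values for Il12rb2 (0.46) and Il4ra (0.43).

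The other 5 inhibitors gave no call among the chains by limma, where 0.0085% of all genes passed with JAK1/2 and 0% with each of the other 4. At an unadjusted p under 0.05 there were 3 chains with TYK2 (4.84% of all genes), 1 with IFN.6228 (6.9%) and 0 with PAN (0.323%), JAK1/2 (5.22%) and IFN.6226 (3.19%). With the TYK2 inhibitor Il12rb2 differed by -0.28 (95% interval -0.52 to -0.05, limma adjusted p = 0.903), Il10ra by -0.19 and Il6st by -0.17. The TYK2 array had the lowest Il12rb2 of the 7 at 8 h (8.27) but not at 2 h. For Il12rb1, the chain that binds TYK2, the difference was -0.05 (-0.22 to 0.12, adjusted p = 1.00). With PAN the largest difference was that of Ifngr1 (0.14, interval -0.0085 to 0.29), which was highest with PAN at both times.

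All 21 pairs of inhibitors were set against each other at their IC80 and at the same times, with p adjusted over all genes within each pair. Of 189 comparisons of a chain 4 passed, beside 0.707% over all genes and pairs, and all 4 involved the JAK1 inhibitor. Nearly all calls over all genes involved it too. In each pair with JAK1 from 0.374% to 6.05% of genes passed, against at most 0.0255% in any other pair. Of the 189 comparisons 49 had an unadjusted p under 0.05, beside 7.55% over all genes and pairs. The JAK1 inhibitor gave less Il4ra than the JAK2 inhibitor by 0.69 (difference -0.69, SE 0.10, 95% interval -0.91 to -0.47, limma adjusted p = 0.0016, 1.61-fold) and less Il10ra by 0.62 (difference -0.62, SE 0.11, interval -0.86 to -0.37, adjusted p = 0.0085, 1.53-fold). By limma 2.07% of all genes passed in that pair. The JAK1 and JAK2 arrays overlapped in neither chain, and also not in Il2rb, Il21r and Il12rb1, which did not pass. The share of all genes without overlap in that pair was not counted, so the lack of overlap is not read as a trait of the chains. At 8 h JAK1 was the lowest array for 45.6% of all genes and JAK2 the highest for 43.1%. Il10ra was also lower with JAK1 than with IFN.6226 (-0.48, SE 0.11, limma adjusted p = 0.0340, 2.98% of genes) and IFN.6228 (-0.43, SE 0.11, limma adjusted p = 0.0391, 6.05% of genes). Leaving out the JAK1 array of 8 h left the JAK1 inhibitor 1 array, of 2 h. The Il4ra difference from JAK2 then still passed, and that of Il10ra did not (-0.50). Il10ra did not differ from either JAK3 inhibitor by a value that passed. Both Il10ra calls against a JAK3 inhibitor were also lost when JAK1/2, PAN, TYK2 or the other JAK3 inhibitor was left out of the fit (limma adjusted p from 0.0525 to 0.0662, with the differences as before).

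The pair with the same target label, IFN.6226 and IFN.6228, gave no call for any chain or other gene (0% by limma), and 0 of the 9 had an unadjusted p under 0.05, beside 0.357% of all genes. Their differences over the 9 chains ran from -0.04 for Ifngr1 to 0.05 for Il12rb2. The 95% intervals show how far they could still differ: -0.26 to 0.36 for Il12rb2, -0.19 to 0.29 for Il10ra, -0.20 to 0.23 for Il4ra and -0.17 to 0.20 for Il2ra.

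The chains were then compared between classes of inhibitor, chosen by the JAKs named in their labels, at each time. By limma no chain passed in any of the 12 comparisons (6 classes at 2 times), and 17 of the 108 comparisons of a chain had an unadjusted p under 0.05, beside 6.36% over all genes in the same 12. In the comparison of JAK1 or TYK2 against the rest, 0.697% of all genes passed at 2 h and 0% at 8 h, where 15.6% (1838 genes) had an unadjusted p under 0.05. Between JAK1 or JAK3 and the rest 0.0425% passed at 2 h, and in the other comparisons 0% did. The values below therefore describe where groups did or did not overlap.

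The kinases of the interferon alpha receptor, JAK1 and TYK2, were named by 4 inhibitors. At 2 h Il10ra was 8.80 ± 0.14 (SD, n = 4) with these and 9.08 ± 0.01 (SD, n = 3) with the others, without overlap (difference -0.28, SE 0.08, limma adjusted p = 0.288). Il12rb1 was 9.95 ± 0.13 against 10.18 ± 0.02, also without overlap (-0.23, SE 0.07, limma adjusted p = 0.481). Groups lay apart in this direction for 3.15% of genes at 2 h. At 8 h Il12rb1 was again lower without overlap, at 9.59 ± 0.03 against 9.77 ± 0.13 (-0.18, SE 0.09, limma adjusted p = 0.323), as 13.7% of genes were, while for Il10ra the groups overlapped (-0.28, SE 0.13, limma adjusted p = 0.321). Il12rb1, which binds TYK2, was the chain whose groups lay apart at both times, as 1.22% of genes did.

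The kinases of common gamma chain receptors, JAK1 and JAK3, were named by 5 inhibitors, the other 2 being TYK2 and JAK2. Il4ra at 2 h was 10.48 ± 0.12 (SD, n = 5) with the former and 10.90 ± 0.25 (SD, n = 2) with the latter, without overlap (-0.41, SE 0.10, limma adjusted p = 0.240, 3.55% of genes lay apart downward). At 8 h the Il4ra groups overlapped, since TYK2 was then at 10.89.

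For the kinases taken singly, the chain that binds the kinase was compared first. Il12rb2, which binds JAK2, was 10.22 ± 0.30 with the 3 inhibitors naming JAK2 against 9.95 ± 0.08 with the other 4 at 2 h (difference 0.27, limma adjusted p = 0.998) and 8.92 ± 0.15 against 8.56 ± 0.21 at 8 h (0.36, adjusted p = 0.995), with overlap at both. Il12rb1 differed by -0.04 at 2 h and by -0.10 at 8 h between the 2 inhibitors naming TYK2 and the other 5. Of the 6 chains that bind JAK1, 1 had groups that lay apart with the 3 inhibitors naming JAK1: Il6st at 2 h, higher at 10.76 ± 0.02 against 10.62 ± 0.09 (0.13, limma adjusted p = 0.383), where 4.5% of genes were higher without overlap. At 8 h its groups overlapped, and Il12rb1 was lower without overlap (-0.15, limma adjusted p = 0.362, 10.7% of genes). The chain that binds JAK3, Il2rg, was not measured. Il2ra, its partner in the interleukin-2 receptor, was lower without overlap at 2 h with the 3 inhibitors naming JAK3, at 12.74 ± 0.02 against 12.86 ± 0.05 (-0.12, limma adjusted p = 0.703). The groups of the other measured partners of Il2rg, namely Il2rb, Il4ra and Il21r, overlapped at 2 h. Il12rb2, which is not a partner of Il2rg, was also lower without overlap (-0.26, limma adjusted p = 0.703), and 2.92% of genes lay apart in this direction. At 8 h the groups of both overlapped, with differences of -0.05 for Il2ra and 0.05 for Il12rb2, whose sign had turned, and Il6st was higher without overlap, at 10.83 ± 0.02 (SD, n = 3) against 10.73 ± 0.07 (SD, n = 4) (0.10, limma adjusted p = 0.828, 2.3% of genes). With inhibitors naming JAK2, Il2rb and Il21r lay apart upward at 2 h (0.14 and 0.09, 1.79% of genes) and Il2ra, Il4ra and Il21r at 8 h (0.24, 0.25 and 0.22, 5.93% of genes).

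**Figure D4:**
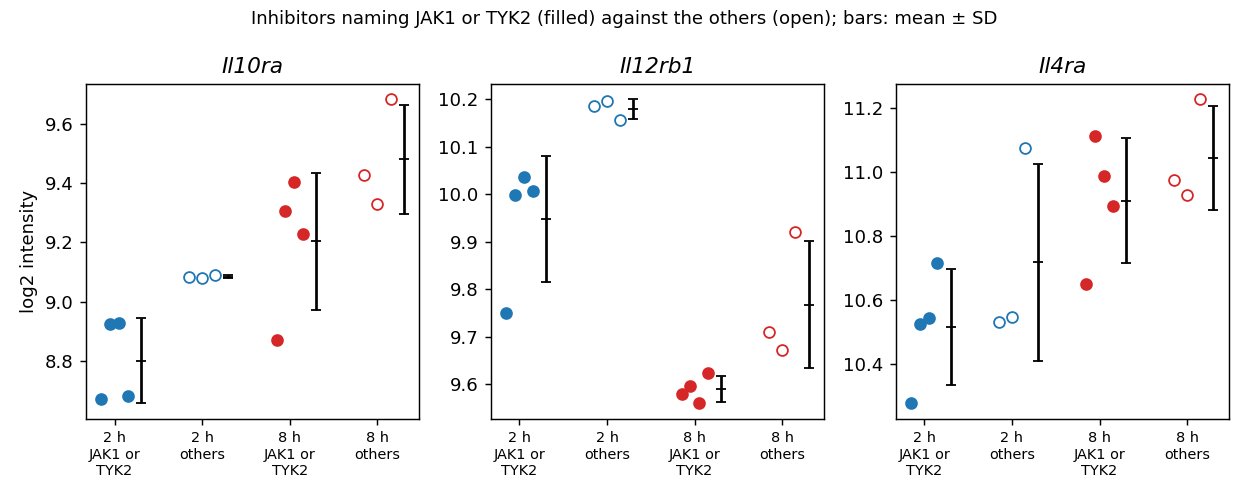
Log2 intensity of Il10ra, Il12rb1 and Il4ra (vertical axes, each with its own range) at 2 h (blue) and 8 h (red) for the 4 inhibitors that name JAK1 or TYK2 (filled) and the other 3 (open), 1 point per inhibitor, with bars for the mean and SD. Il12rb1 lies lower without overlap at both times with inhibitors that name JAK1 or TYK2, and no difference shown passed the test.

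Other genes of the pathway give the setting of the 9 chains. Between 2 h and 8 h 21.4% of all genes rose and 28.2% fell, and the counts below stand beside these shares. Of 29 further receptor chains that use JAKs, 15 were bright enough to test, of which 4 rose and 3 fell. Ifngr2, the JAK2-binding partner of Ifngr1, fell by 0.79 (SE 0.05, limma adjusted p = 1.8e-08). Ifnar2, a chain of the interferon alpha receptor, rose by 0.49, Il15ra fell by 0.52 and Il9r rose by 0.47. Of 11 receptor chains that use no JAK, 6 were tested, of which 2 rose (Il17ra by 0.46 and Il17rc by 0.22) and 1 fell (Il18r1 by 0.36), and Il17rb was at -0.14 without passing. Of 9 tested kinases and STATs 4 rose and 3 fell, among them Jak1 (0.31 higher), Stat4, which transmits interleukin-12 signals (0.37 higher), Jak2 (-0.38) and Stat5a, which transmits interleukin-2 signals (-0.53).

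The ligands and the feedback inhibitors mostly fell, where 28.2% of all genes fell and 21.4% rose. Of 8 tested ligand genes of 23 listed, 5 fell and 1 rose: Il2 fell by 2.69 (SE 0.07), Lif by 1.37, Ifng by 0.92 and Il4 by 0.86. Of 18 tested feedback inhibitors 10 fell and 5 rose, with Cish, a target of STAT5, falling by 1.48, Socs2 by 1.47, Socs1 by 0.72 and Ptpn2 by 0.56. The median change was -0.66 for the ligands and -0.20 for the feedback inhibitors, beside 0.02 for all genes. With the JAK1 inhibitor against the others, 6 genes of these lists passed, where 7.77% of all genes did. The lists held 15, 6, 9, 18 and 8 tested genes. These 6 genes were not examined without the JAK1 array of 8 h, where 1.97% of all genes passed. Stat2, a component of the interferon-induced complex ISGF3, was lower by 1.12 (difference -1.12, SE 0.14, limma adjusted p = 3.7e-04), Socs1 by 0.41 (-0.41), Socs2 by 0.35 (-0.35) and Ifngr2 by 0.29 (-0.29), while Socs7 was higher by 0.33 and Il27ra, another JAK1-binding chain, by 0.29. Against the others, the JAK2 inhibitor gave more Cish (1.06, limma adjusted p = 0.0211), Socs2 (0.79, adjusted p = 0.0078) and Socs1 (0.63, adjusted p = 0.0262). Only 0.0765% of all genes passed there (9 genes). The JAK2 arrays are among those that the JAK1 inhibitor was compared with.

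Last, the genes whose pattern was most like that of each chain were listed by Pearson r over the 14 arrays, which share their culture times and their normalization. Over all 14 arrays Il2ra was most like Polr1b (r = 0.993), Bop1 (0.992) and Larp1 (0.991), and Il12rb2 most like Pprc1 (0.983) and Polr1b (0.977). Il10ra was most like Tlr7 (0.971), H2-T24 (0.968) and Oas2 (0.964), Il12rb1 most like N4bp1 (0.956), and Il4ra most like Treml2 (0.914). After the mean of each time was subtracted, which leaves the differences between inhibitors, Il4ra was most like Socs1 (0.944) and Jaml (0.919), Il10ra most like Sh3bp2 (0.975), and Il12rb1 most like Gm4841 (0.958), Edem2 (0.936) and Gbp7 (0.931). Il12rb2 was then most like Myc (0.898), Il2ra like Nolc1 (0.963), Il2rb like Engase (0.925), Il21r like Igfbp4 (0.925), Il6st like Prkch (0.936) and Ifngr1 like Akr1e1 (0.904). Among the chains themselves the closest pairs on this measure were Il2ra and Il2rb (0.834), Il2rb and Il12rb2 (0.795), Il12rb1 and Il10ra (0.768) and Il2rb and Il21r (0.764), all over 14 arrays. The chains of the interleukin-12 receptor, Il12rb1 and Il12rb2, had an r of 0.815 over all arrays and of 0.184 after the time means were subtracted.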

How the data were processed

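RNA was measured on 14 arrays, 1 for each of 7 inhibitors at 2 h and 8 h. The deposited values are linear intensities per probe set, made with Affymetrix Power Tools and RMA per the submitters' processing notes, without versions; which arrays were normalized as 1 set, and with what background correction, is not given in the sources used here. They were put on the log2 scale. Probe sets of 1 gene symbol were used (21425 of 24922), the brightest per gene, with symbols checked against RefSeq names of GRCm38.p6. A gene was tested if its mean log2 intensity was 6.29 or more, the 40th percentile over probe sets of 1 symbol (11761 genes). Precision is limited by the number of arrays.

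The fits used R 4.3.3, limma 3.58.1 (lmFit, eBayes with trend) and statmod 1.5.0. Time and single inhibitors were tested in 1 additive fit of inhibitor and time (6 residual degrees of freedom), classes on 1 value per inhibitor and time (5 residual degrees of freedom). Within each comparison p-values were adjusted by Benjamini-Hochberg over the 11761 genes, and the threshold was 0.05. Intervals are 95% intervals. Figures and motif searches used Python 3.11.15, numpy 2.4.6, pandas 2.3.3 and matplotlib 3.10.9, and the scripts were tested on simulated data.

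The chains, the lists and the markers were chosen with earlier results of these data known. Named beside the chains were the 3 genes most like each by Pearson r, of which the first are printed, up to 4 genes per list with the largest moderated t for time, and up to 4 per list that passed where a chain passed too. The list genes that passed with the JAK2 inhibitor, where no chain passed, are also given. Alternatives were quantile normalization, median centring, cyclic loess, dropping the filter or moving it to the 60th percentile, averaging probe sets of a gene, robust moderation, no variance trend, adding 50 to the intensities, no pairing by inhibitor, the JAK3 inhibitors averaged, the JAK1 array of 8 h left out, and each inhibitor left out in turn. Leaving out the 3 arrays with higher muscle genes, and the alternatives for the ranks with JAK2, were chosen after seeing the data.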

Additional observations from a re-analysis of the deposited data

Results flagged for a closer look

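In each group of 7 arrays at 1 time, the highest and lowest values of each chain were compared with the rest, 18 groups in all, and chance alone marks about 1 in 20. Il12rb2 at 2 h was 10.56 on the JAK2 array, with the other 6 between 9.85 and 10.12, and the gap was 0.618 of the whole range. Il12rb1 at 8 h was 9.92 on the JAK2 array, with the other 6 between 9.56 and 9.71, and the gap was 0.582 of the range. Both are chains of the interleukin-12 receptor and both high values belong to the JAK2 inhibitor, at different times. The JAK2 array was the highest of the 7 for 15.1% of all genes at 2 h and for 43.1% at 8 h. The share of all genes marked in this way was not counted.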

How the results depend on the processing

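The 5 chains called between 2 h and 8 h (Il2ra, Il12rb1, Il12rb2, Il4ra and Il10ra) were called in every alternative tried, joined by Il6st or Ifngr1 in some (5 to 6 chains). Without pairing by inhibitor (no replicate block) the count was 5. The labels give every sample the same replicate number, so the inhibitor is the only pairing. Counts of 0 for the classes and for the change with time by class did not move in any alternative. The count of chains that differed among the 7 inhibitors went from 0 to 1 with cyclic loess (Il10ra) and, for Il4ra, with an offset of 50, with the 60th percentile filter, with robust moderation and without the JAK1 array of 8 h, to 4 without the 3 arrays with higher muscle genes, and lay at 0 to 1 with an inhibitor left out (1 without JAK1/2). Calls of 1 inhibitor against the other 6 went from 2 to 6 without the 3 arrays (1.24% of all genes and inhibitors), were 3 without the JAK1 array of 8 h (Il2ra, Il2rb and Il4ra with JAK2, 0.429%), and lay at 0 to 3 with an inhibitor left out. Calls in pairs went from 4 to 2 without the JAK1 array of 8 h (Il4ra and Il12rb1 between JAK1 and JAK2, 0.53% over all genes and pairs), to 15 without the 3 arrays (1.29%), and lay at 0 to 3 with an inhibitor left out; the 2 that remained without JAK1/2, PAN, TYK2, IFN.6226 or IFN.6228 were Il4ra and Il10ra between JAK1 and JAK2. Chains highest with JAK2 at both times went from 6 to 3 under median centring. The time difference of Il2rb turned to -0.0019 under median centring, and that of Il21r to 0.0199 under quantile normalization and 0.0236 under cyclic loess. The cause was not tested in any of these. Without the JAK1 array of 8 h, or without the 3 arrays, the JAK1 inhibitor had 1 array, of 2 h, on which its calls rest. For the JAK1 inhibitor against the others the split of all calls was 113 higher and 801 lower as deposited, 35 and 515 with median centring, 710 and 759 with loess, and 752 and 763 with quantile normalization.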
